A study of Homo sapiens with 6 samples.

Results

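Kinesins are motor proteins that use ATP to move along microtubules, and the human genes for most of them carry the symbol *KIF* and a number. The kinesin superfamily was followed here in A2780, an established ovarian cancer cell line, after exposure to TH588 (TH-588 in the labels), a small-molecule inhibitor of the nucleotide pool enzyme MTH1. Members were the protein-coding genes of the deposited count table whose symbol is *KIF* followed by a digit, which gave 39 of 58336 genes. The partner-protein genes *KIFAP3* and *KIFBP* do not meet that rule. The members were divided by textbook role into 14 mitotic kinesins, 15 transport kinesins, 6 kinesins of the cilium and of Hedgehog signalling, and 4 with other or little-known roles. Poly(A) RNA was sequenced from 3 libraries of cells given the vehicle DMSO and 3 libraries of cells given 6 µM TH588 for 48 h, each group comprising replicates A, B and C from separate experiments. Both groups are the same line with no introduced allele, and 1 line, 1 dose and 1 time were sampled.

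Mitotic kinesins build the spindle, move and align chromosomes, shorten microtubules at their ends and help to split the cell at cytokinesis. Many of their genes are transcribed mainly in G2 and mitosis, and their mRNAs are low in cells that have left the cycle. Transport kinesins instead carry vesicles, organelles, mRNAs and protein complexes along interphase microtubules, some of them as assemblies with light chains or accessory subunits. The comparison asks how each of these sets stood in cells exposed to an inhibitor that the study examined for its effect on mitosis.

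Total counts ran from 77634048 to 99074175 in 5 libraries, while TH588 replicate A held 28537837. The small nucleolar RNA *SNORD3A* took 21.9% of the counts in TH588 replicate A and 7.68% to 13.0% in the other libraries. Levels are given below as CPM, counts relative to the library size in the usual CPM unit, with that size scaled by TMM, a factor that allows for differences in RNA composition. A level compared between genes is given as CPM per kb, divided by the length of the gene's exons. The mesenchymal gene *VIM* stood at 3586 CPM with DMSO, whereas none of the 5 ovarian carcinoma markers *PAX8*, *WT1*, *MUC16*, *MSLN* and *ESR1* had enough counts to be tested, their group means being at most 0.122 CPM. The epithelial markers *CDH1*, *KRT8* and *KRT19* were likewise near 0, with group means of at most 0.159 CPM, while *EPCAM* went from 0.644 to 4.74 CPM and *KRT18* from 3.56 to 6.54 CPM. The immune marker *CD3E* had 0 counts, and *PTPRC* was at most 0.0356 CPM in the group means.

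A total of 34 kinesin genes had enough counts to be tested, and 25 of them differed between the groups at an adjusted p under 0.05 in edgeR's quasi-likelihood test, 20 lower and 5 higher after TH588. Across all 15844 genes tested, 49.6% were called, 25.3% lower and 24.2% higher. Rises made up 48.9% of all calls, and 60.4% with library size alone as the scale, which moved the median log2 change over the whole table from 0.02 to 0.13. The roles did not share these calls evenly. All 12 called mitotic kinesins were lower, out of 13 tested. The 15 transport kinesins, which were all tested, gave 4 lower and 5 higher. The median log2 fold change was -1.01 for the mitotic kinesins and -0.05 for the transport kinesins, a gap of -0.96 between the medians. These medians describe the members that passed the filter on low counts and carry no test of their own. In RNA from whole cultures, fewer cells of one kind and less RNA per cell cannot be told apart. The smallest two-sided p that an exact permutation test could give for 1 gene in 3 libraries a group is 0.1, and the calls therefore rest on the model fitted across all genes.

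**Figure D1:**
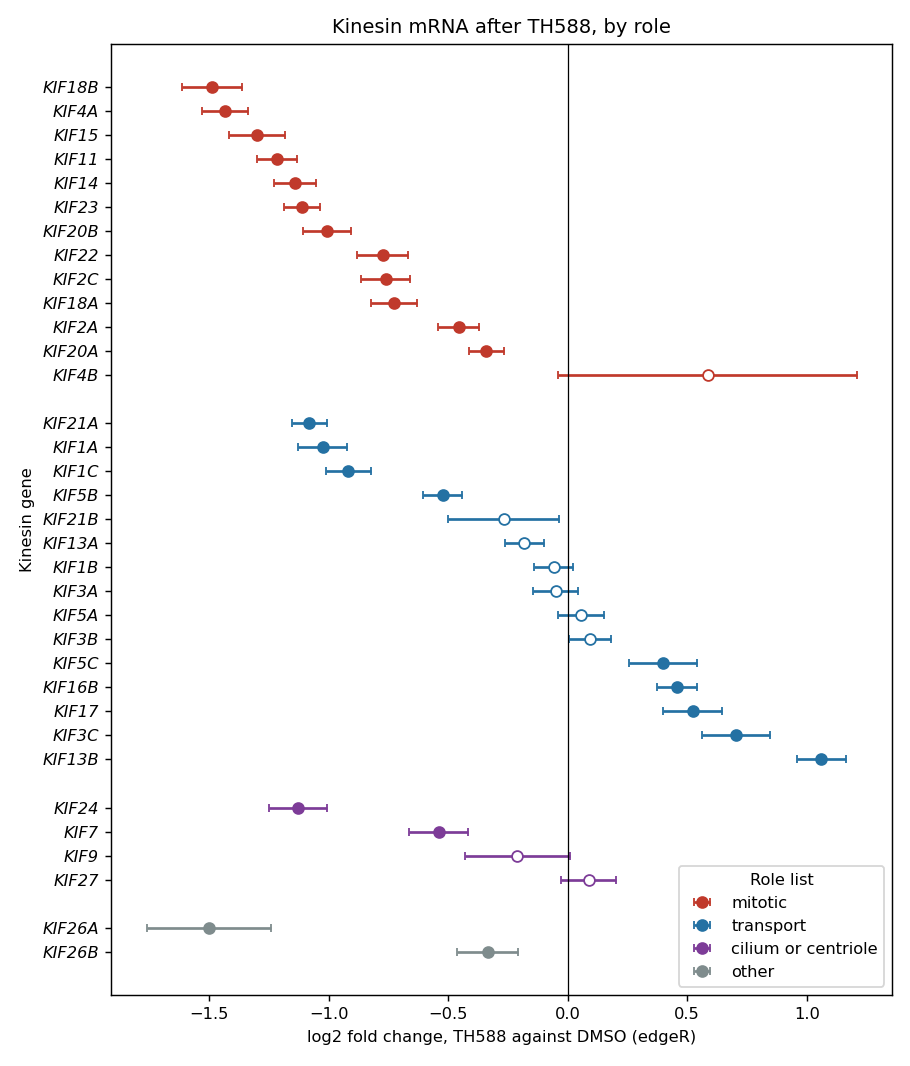
The log2 fold change of TH588 over DMSO is plotted for each of the 34 tested kinesin genes, grouped and coloured by role, with bars for the standard error. Filled points have an adjusted p under 0.05 and open points do not. The 12 filled mitotic points all lie left of 0, while the filled transport points lie on both sides, from -1.08 for KIF21A to 1.06 for KIF13B.

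The chromokinesin genes *KIF4A* and *KIF22*, whose products bind chromosome arms, were lower after TH588. *KIF4A* (ENSG00000090889, chromosome X of GRCh38, 70290090 to 70420832), a chromokinesin that also works with PRC1 at the central spindle, stood at 272, 244 and 262 CPM with DMSO and 85.1, 108 and 94.6 CPM with TH588 (libraries here and below in the order A, B, C). No TH588 library came near the lowest DMSO library. Its mean went from 259 ± 14.4 to 95.7 ± 11.3 CPM (SD, n = 3 per group), with a log2 fold change of -1.44 (SE, the standard error, 0.10, adjusted p = 3.1e-07, edgeR). Per length it was the most abundant mitotic kinesin with DMSO, at 57.2 CPM per kb. *KIF22* (Kid), which helps to push chromosome arms toward the spindle equator, had 13.0% of its exon bases in common with other genes and fell less (log2 fold change -0.77, SE 0.11, adjusted p = 8.73e-05, edgeR).

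The mitotic kinesin-8 genes *KIF18A* and *KIF18B*, whose products limit the growth of microtubule plus ends, were lower. *KIF18B* (ENSG00000186185, chromosome 17, 44924709 to 44947711) had the largest fitted fall of the mitotic set, close to that of *KIF4A*, which passed it without TH588 replicate C (-1.41 against -1.40). Its levels were 60.1, 50.6 and 50.7 CPM with DMSO and 16.7, 23.1 and 17.5 CPM with TH588. The groups were far apart, the highest TH588 library being below the lowest DMSO library by more than its own level. In log2 terms the fold change was -1.49 (SE 0.12, adjusted p = 1.56e-06, edgeR), a 2.8-fold lower level. *KIF18A*, which dampens the movements of aligned chromosomes, went from 65.8 ± 4.18 to 39.9 ± 4.56 CPM (SD, n = 3 libraries each), a fall of 0.73 on the log2 scale (adjusted p = 5.41e-05, edgeR).

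The genes of both motors that push spindle poles apart were lower. *KIF11* (Eg5; ENSG00000138160, chromosome 10, 92593286 to 92655395), which is needed for a bipolar spindle, had 208, 212 and 222 CPM with DMSO and 83.8, 93.1 and 98.6 CPM with TH588. All TH588 libraries lay under the lowest DMSO library, and TH588 replicate A, the shallow one, was the lowest. Its fold change on the log2 scale was -1.22 (SE 0.08, adjusted p = 3.61e-07, edgeR). *KIF15* (ENSG00000163808, chromosome 3, 44761717 to 44873376), which can take over part of that work, had 59.7, 57.7 and 61.5 CPM with DMSO and 19.2, 25.7 and 27.3 CPM with TH588. Again no libraries overlapped, and replicate A was the lowest with TH588. Its log2 fold change was -1.30 (SE 0.12, adjusted p = 2.45e-06, edgeR). The level of *KIF11* per kb was 3.78 to 3.99 times that of *KIF15* with DMSO and 3.92 to 4.75 times with TH588, ranges that overlap.

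Among the cytokinesis motors, 3 fell by at least 2-fold and 1 fell much less. *KIF23* (MKLP1; ENSG00000137807, chromosome 15, 69414246 to 69448427), a subunit of centralspindlin, had 185, 185 and 202 CPM with DMSO and 86.1, 87.6 and 91.4 CPM with TH588. The TH588 libraries were within a few CPM of one another and far under all DMSO libraries. On the log2 scale the change was -1.11 (SE 0.08, adjusted p = 3.86e-07, edgeR). *KIF14* (ENSG00000118193, chromosome 1, 200551497 to 200620734), which recruits citron kinase to the midbody, had 135, 130 and 139 CPM with DMSO and 55.0, 67.2 and 60.8 CPM with TH588. No library of one group reached the other. Its log2 fold change was -1.14 (SE 0.09, adjusted p = 8.1e-07, edgeR). *KIF20B* (ENSG00000138182, chromosome 10, 89701610 to 89774939), a motor needed for late cytokinesis, went from 86.4, 94.1 and 99.7 CPM to 39.9, 48.2 and 51.0 CPM. Its groups were as clearly separated, with a log2 fold change of -1.01 (SE 0.10, adjusted p = 6.17e-06, edgeR). Whether its fall reached 2-fold depended on the fit. The log2 fold change was -0.89 with library size alone and ran from -1.06 to -0.90 with each library left out in turn.

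*KIF20A* (MKLP2; ENSG00000112984, chromosome 5, 138178719 to 138187715), which brings the chromosomal passenger complex to the midzone, was singled out after its values were seen because its fall was the smallest of the called mitotic members. It had 94.4, 96.0 and 98.7 CPM with DMSO and 73.3, 77.7 and 77.1 CPM with TH588. The groups did not overlap, but the step between them was small. In log2 terms the fold change was -0.34 (SE 0.07, adjusted p = 0.00207, edgeR), and with library size alone it was -0.24 (adjusted p = 0.0837), which is no longer a call. As levels per kb, *KIF20A* was 0.813 to 0.861 times *KIF23* with DMSO and 1.4 to 1.47 times *KIF23* with TH588. *KIF4A* was 2.22 to 2.51 times *KIF20A* with DMSO and 1.01 to 1.21 times with TH588. The order of *KIF20A* and *KIF23* was thus opposite in the 2 groups of libraries. These ratios are given as descriptions, with no test.

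*KIF2A*, *KIF2B* and *KIF2C* encode kinesin-13 motors, which take microtubules apart at their ends instead of walking along them, and the 2 that were tested fell by less than 2-fold. *KIF2C* (MCAK), which corrects faulty attachments at centromeres, went from 119 ± 7.77 to 69.9 ± 9.54 CPM (SD, n = 3 libraries each), with a log2 fold change of -0.76 (adjusted p = 6.49e-05, edgeR). *KIF2A*, which acts at spindle poles and also trims neuronal branches, had a log2 fold change of -0.46 (adjusted p = 0.000832, edgeR), and 9.0% of its exon bases were shared with *IPO11*. The third of these genes, *KIF2B* (ENSG00000141200, chromosome 17), had 0 counts in all 6 libraries. A floor of 3 counts would be 0.112 CPM in TH588 replicate A and at most 0.0365 CPM in the others.

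*KIF4B* (ENSG00000226650, chromosome 5, 155013755 to 155018132), an intronless copy of *KIF4A*, was the tested mitotic member that was not called. It had 4, 13 and 44 counts in the DMSO libraries and 11, 35 and 27 counts in the TH588 libraries, so the groups overlapped widely. Its transcript was 95.3% identical to that of *KIF4A* over 4345 aligned bases, and how reads matching both were counted is not given in the sources used here. Its log2 fold change was 0.59 (SE 0.63, adjusted p = 0.467, edgeR), and it was 1.74 (adjusted p = 0.037) without DMSO replicate C. Its value is therefore uncertain.

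Altogether the groups of libraries did not overlap for 12 of the 13 tested mitotic kinesins, against 57.7% of all genes tested. The drop was at least 2-fold for 7 of them (*KIF20B* only narrowly), a size that 4.76% of all genes reached in that direction. Relative to the DMSO mean, the median log2 ratio of the 13 genes was -1.15, -0.95 and -0.87 in the TH588 libraries. It lay between -0.05 and 0.05 in the DMSO libraries. The 6 proliferation markers *MKI67*, *TOP2A*, *CDK1*, *CCNB1*, *MCM2* and *PCNA* were all called lower too, against 25.3% of all genes tested. Their log2 fold changes ran from -0.62 to -1.86. Their summed level was 3138 to 3345 CPM with DMSO and 1120 to 1396 CPM with TH588, and no marker was at 0. The part of a changed share of cycling cells in the kinesin result was not tested.

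**Figure D2:**
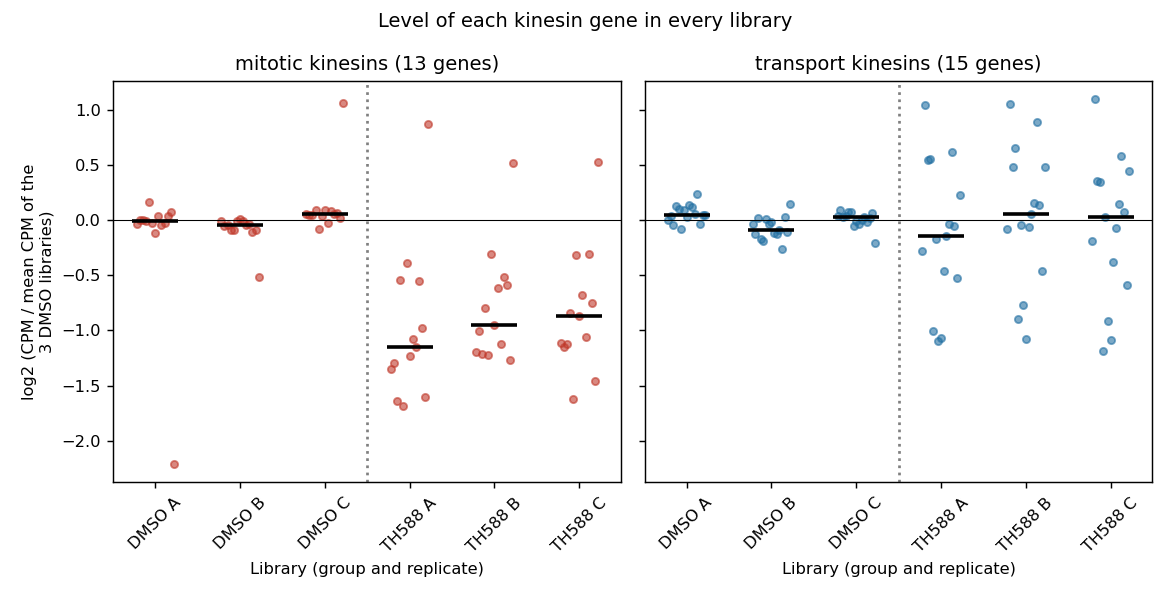
Each point is a tested kinesin gene in 1 library, as the log2 of its CPM over its mean CPM in the 3 DMSO libraries, with mitotic genes on the left, transport genes on the right and black bars for the median. The mitotic median lies between -1.15 and -0.87 in the TH588 libraries and the transport median between -0.14 and 0.06, and the single mitotic point per library far from the rest is KIF4B.

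Promoter sequence was read because the mitotic members moved together. Many genes expressed in G2 and mitosis carry a cell cycle genes homology region, or CHR, which is bound by the DREAM and MuvB complexes, often a short distance from CCAAT boxes, which are bound by NF-Y. The letters TTTGAA and TTCGAA for the CHR and CCAAT for the box were searched on both strands of RefSeq promoters (GRCh38.p14), from 250 bases before to 50 bases after each start. In no printed site did the letters of a CHR share a base with those of a CCAAT box. A match is a description of letters and not of binding. A total of 33 kinesin genes had a promoter in the table, and *KIF13B*, *KIF19*, *KIF21B*, *KIF26B*, *KIF27* and *KIF5A* did not. CHR letters were found at 10 of 14 mitotic genes (71.4%), 1 of 12 transport genes (8.33%), 1 of 4 cilium genes and 0 of 3 of the rest, against 19.5% of 27305 genes with any start in the table and 16.4% of 35116 promoters. CCAAT letters were found at 10 of 14 mitotic genes and 4 of 12 transport genes, against 39.7% of all genes. Both were found at 9 of 14 mitotic genes (64.3%), against 7.85% of all genes. The 12 kinesin promoters with CHR letters are shown as 26 bases each, in the direction of the gene, with the CHR letters in capitals (TTCAAA is TTTGAA on the other strand) and, for KIF23, also a CCAAT box read on the other strand as ATTGG. The first 10 are the mitotic genes, followed by KIF24 of the cilium set and KIF5B of the transport set.
KIF18B, chr17:44947756-44947781 (minus strand): gcccggctaaTTTGAAcgcaaggcgc
KIF4A, chrX:70290060-70290085 (plus strand): ccgggacggaTTTGAAacttggcggt
KIF15, chr3:44761749-44761774 (plus strand): aagcgccaaaTTCAAAtttgcggcca
KIF11, chr10:92593092-92593117 (plus strand): ctgtctctttTTCAAAttgaggcgcc
KIF14, chr1:200620735-200620760 (minus strand): ggggcgcccaTTCAAAttgcggcctt
KIF23, chr15:69414284-69414309 (plus strand): gATTGGcccgTTTGAAatgcgccagg
KIF20B, chr10:89701604-89701629 (plus strand): gccgccattgTTTGAATTTGAAaacg
KIF22, chr16:29790714-29790739 (plus strand): caccggggaaTTCGAAtgggagaggc
KIF18A, chr11:28108151-28108176 (minus strand): gtggcttgggTTTGAAtattgtggtt
KIF4B, chr5:155013748-155013773 (plus strand): ctgggagggaTTTGAAacttggcggt
KIF24, chr9:34329252-34329277 (minus strand): agcgcgggcgTTCGAActggcgcttg
KIF5B, chr10:32056550-32056575 (minus strand): tgcagtaaaaTTTGAAtctgcgaccc

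The flanks differ between genes, apart from the nearly alike sites of KIF4A and its copy KIF4B. KIF20B holds the CHR letters as an adjacent pair. The first CHR base lay from 55 bases before to 31 bases after a start for every mitotic match but a second KIF22 one, counted from another start of that gene, and 140 bases before the start for KIF5B. To show the setting of the letters, the bases upstream of the exons are given for 2 mitotic kinesins that fell by over 2-fold and, beside them, for 2 transport kinesins that rose, with CHR letters and the CCAAT box in capitals.
KIF4A, chrX:70290004-70290089 (plus strand): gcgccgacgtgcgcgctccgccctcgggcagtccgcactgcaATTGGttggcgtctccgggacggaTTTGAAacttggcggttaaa
KIF11, chr10:92593030-92593129 (plus strand): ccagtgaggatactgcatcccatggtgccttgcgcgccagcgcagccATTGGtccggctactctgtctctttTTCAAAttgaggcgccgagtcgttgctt
KIF16B, chr20:16573449-16573548 (minus strand): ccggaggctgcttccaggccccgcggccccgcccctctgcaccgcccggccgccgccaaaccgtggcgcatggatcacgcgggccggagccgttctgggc
KIF17, chr1:20718018-20718107 (minus strand): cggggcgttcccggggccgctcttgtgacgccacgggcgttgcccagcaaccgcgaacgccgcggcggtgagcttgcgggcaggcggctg

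In KIF4A and KIF11 the box and the CHR letters lie on the same stretch with the CHR closer to the start, while KIF16B and KIF17 have neither in the bases shown. The called mitotic genes without CHR letters in the window were *KIF2A*, *KIF2C* and *KIF20A*, and the last of these had CCAAT letters only. Outside the mitotic set, *KIF26A*, *KIF21A*, *KIF1A*, *KIF1C* and *KIF7* were called lower with neither CHR nor CCAAT letters, while *KIF24* and *KIF5B* were called lower with both. *KIF4B* had both and was not called. Over all tested genes with a promoter, the share called lower was smallest without CHR letters and largest with CHR and CCAAT letters together. With CHR letters, 30.8% of 1768 genes were called lower, and without them, 28.0% of 9356. With CHR and CCAAT letters together, 35.8% of 726 genes were lower. A link between the letters and the falls of the kinesin genes was not tested.

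**Figure D3:**
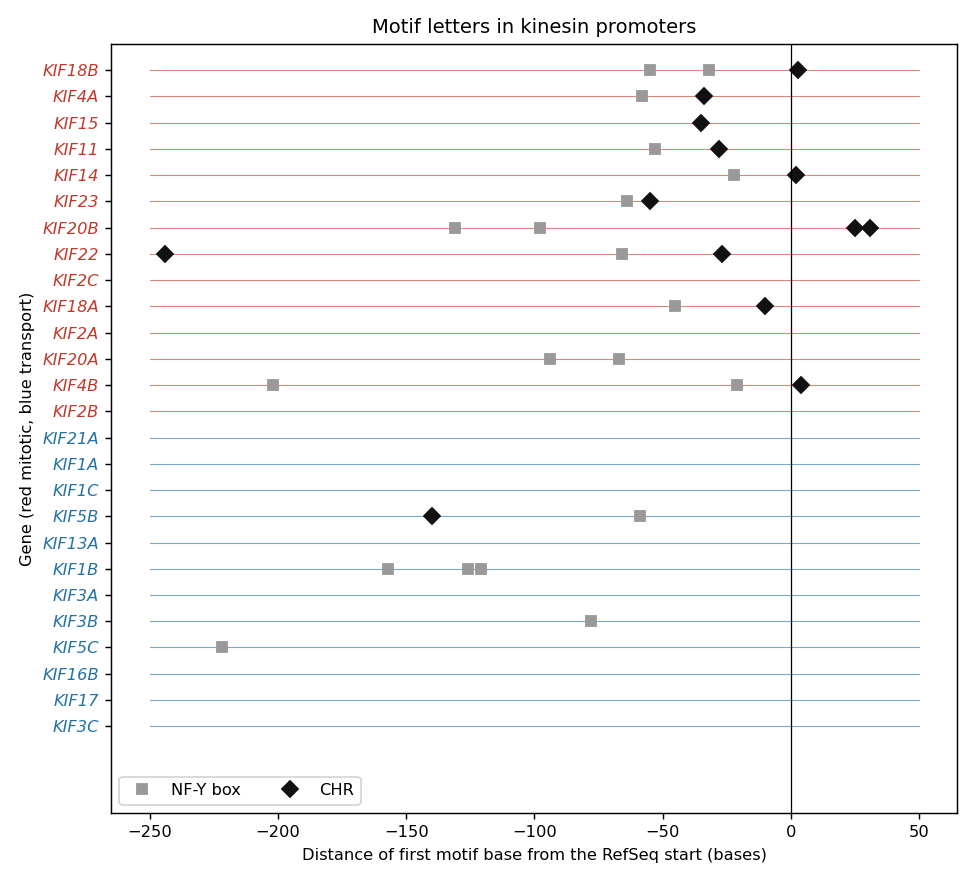
For each mitotic (red) and transport (blue) kinesin gene with a RefSeq promoter, a line spans 250 bases before to 50 bases after the start, in bases, with diamonds at the first base of CHR letters and squares at that of CCAAT letters (NF-Y box). Diamonds are on 10 of 14 mitotic lines and 1 of 12 transport lines, and KIF22 is drawn with matches from more than 1 start.

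Transport kinesins were called both ways, 4 lower and 5 higher of 15, where 25.3% of all genes tested were lower and 24.2% higher. The share called, 60.0%, was not far from the 49.6% of all genes tested. Those that fell included the most abundant one. *KIF5B* (ENSG00000170759, chromosome 10, 32009010 to 32056431), the widely expressed heavy chain of kinesin-1, had the highest level per length of all members, 81.1 ± 5.11 CPM per kb with DMSO and 56.4 ± 2.52 with TH588 (SD, n = 3 libraries each). In CPM it stood at 491, 442 and 496 with DMSO and 332, 346 and 317 with TH588. All TH588 libraries were below all DMSO libraries. Its fold change on the log2 scale was -0.52 (SE 0.08, adjusted p = 0.000184, edgeR). The neuronal heavy chain *KIF5A* did not differ by the test (log2 fold change 0.06, SE 0.10, adjusted p = 0.666, edgeR). The other neuronal one, *KIF5C*, was far less abundant and was higher, from 3.97, 4.25 and 3.34 CPM to 4.52, 5.37 and 5.25 CPM. The libraries did not overlap, but the lowest TH588 library was close to the highest DMSO library. Its log2 fold change was 0.40 (SE 0.14, adjusted p = 0.0363, edgeR), and the call was lost without DMSO replicate A (adjusted p = 0.0572), DMSO replicate C (0.133), TH588 replicate B (0.112) or TH588 replicate C (0.0927), and with the replicate letter as a block (0.0617). Of the summed level per kb of these 3 chains, KIF5B held 95.7% to 96.3% with DMSO and 93.7% to 94.5% with TH588.

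The kinesin-3 genes, whose products carry synaptic vesicle precursors, endosomes and other membranes, were split. *KIF1A* (ENSG00000130294, chromosome 2, 240713764 to 240820308), an axonal vesicle motor, had 76.1, 62.4 and 74.7 CPM with DMSO and 35.4, 38.1 and 31.3 CPM with TH588. The groups were far apart, with a log2 fold change of -1.02 (SE 0.10, adjusted p = 6.27e-06, edgeR). *KIF1C* (ENSG00000129250, chromosome 17, 4997948 to 5028401), which moves integrin vesicles and mRNA, went from 245, 224 and 221 CPM to 108, 135 and 122 CPM. It too showed no overlap, and its log2 fold change was -0.92 (SE 0.09, adjusted p = 7.48e-06, edgeR). *KIF1B*, which carries mitochondria and synaptic vesicle precursors, stood at 185, 196 and 205 CPM with DMSO and 174, 189 and 200 CPM with TH588. Its libraries overlapped almost fully, and its log2 fold change of -0.06 (SE 0.08, adjusted p = 0.583, edgeR) turned to 0.05 with library size alone.

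A rise of over 2-fold was called in this family too. *KIF13B* (ENSG00000197892, chromosome 8, 29067279 to 29263124), a motor for membrane cargo and polarity proteins, had 10.0, 8.96 and 10.4 CPM with DMSO and 20.2, 20.3 and 20.9 CPM with TH588. Replicates of each group lay close together and the groups were well separated. On the log2 scale the change was 1.06 (SE 0.10, adjusted p = 5.01e-06, edgeR), and 7.8% of its exon bases were shared with other genes. At least a 2-fold rise was called for 9.75% of all genes. Its paralog *KIF13A*, an endosome motor, had 72.5, 70.8 and 74.6 CPM with DMSO and 59.7, 68.5 and 63.7 CPM with TH588. Its groups did not overlap, but the log2 fold change of -0.18 (SE 0.08, adjusted p = 0.0776, edgeR) was not called. Without TH588 replicate B it was -0.24 (adjusted p = 0.0496). The ratio of *KIF13A* to *KIF13B* per kb was 7.14 to 7.89 with DMSO, against 2.95 to 3.38 with TH588. *KIF16B* (ENSG00000089177, chromosome 20, 16272104 to 16573434), which positions early endosomes, rose from 29.8, 31.2 and 31.3 CPM to 44.7, 42.9 and 39.4 CPM. Again the groups were apart, with a log2 fold change of 0.46 (SE 0.08, adjusted p = 0.000606, edgeR).

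Within kinesin-2, the motors of intraflagellar transport and of some neuronal cargo, the 2 called genes rose. *KIF3C* (ENSG00000084731, chromosome 2, 25926596 to 25982749), a motor subunit that can pair with KIF3A, had 10.6, 7.53 and 8.93 CPM with DMSO and 13.8, 16.7 and 13.5 CPM with TH588. All TH588 libraries were above all DMSO libraries. In log2 terms the fold change was 0.71 (SE 0.14, adjusted p = 0.00134, edgeR). *KIF17* (ENSG00000117245, chromosome 1, 20664014 to 20718017), a homodimeric motor of dendrites and cilia, rose from 11.0, 8.93 and 10.3 CPM to 14.8, 15.9 and 12.8 CPM. Its groups did not overlap, and the log2 fold change was 0.52 (SE 0.12, adjusted p = 0.00391, edgeR). The more abundant subunits were not called. The log2 fold change of *KIF3A* was -0.05 (SE 0.09, adjusted p = 0.69, edgeR), and 0.06 with library size alone. That of *KIF3B* was 0.09 (SE 0.09, adjusted p = 0.418, edgeR). KIF3C made up 19.7% to 23.8% of the summed KIF3B and KIF3C level per kb with DMSO and 27.2% to 31.6% with TH588, 2 ranges that do not overlap.

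The kinesin-4 motor *KIF21A* (ENSG00000139116, chromosome 12, 39293228 to 39443390), which restrains microtubule growth at the cell edge and is counted here with the transport kinesins, also fell by over 2-fold. It stood at 120, 116 and 117 CPM with DMSO and 55.9, 55.6 and 55.1 CPM with TH588. Replicates were nearly identical within each group and the groups were far apart. Its fold change on the log2 scale was -1.08 (SE 0.07, adjusted p = 3.11e-07, edgeR). Its paralog *KIF21B* was scarce, with 1.18 ± 0.109 CPM in the vehicle group against 0.967 ± 0.144 CPM after TH588 (SD, n = 3 libraries each), and its log2 fold change of -0.27 was not called (SE 0.23, adjusted p = 0.364, edgeR).

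**Figure D4:**
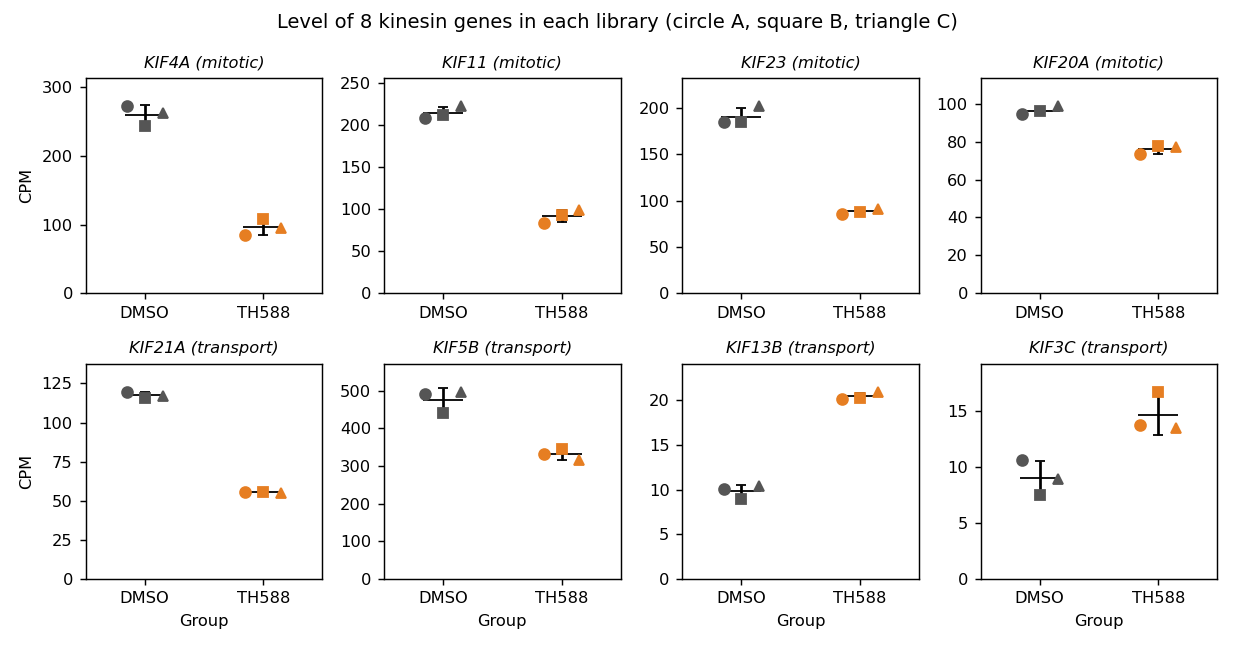
The level in CPM is shown for 8 kinesin genes in each library, DMSO in grey and TH588 in orange, with lines for the mean and bars for the SD over 3 libraries and with the vertical axes starting at 0. The mitotic genes KIF4A, KIF11, KIF23 and KIF20A and the transport genes KIF21A and KIF5B are lower in every TH588 library, and KIF13B and KIF3C are higher in every TH588 library.

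Of the 6 cilium and Hedgehog members, 4 were tested and 2 were called, both lower. That share is near the 49.6% called over all genes tested. *KIF24* (ENSG00000186638, chromosome 9, 34252381 to 34311371), a kinesin-13 motor that holds back cilium assembly at the mother centriole, had 12.3, 12.0 and 14.7 CPM with DMSO and 6.20, 5.81 and 5.88 CPM with TH588. The TH588 libraries were close together and far below the others. On the log2 scale the change was -1.13 (SE 0.12, adjusted p = 1.09e-05, edgeR). *KIF7* (ENSG00000166813, chromosome 15, 89608789 to 89655451), a regulator of Hedgehog signalling at the tip of the cilium, was the most abundant of this set per length, at 4.17 CPM per kb with DMSO. It had 23.3, 19.9 and 19.3 CPM with DMSO and 13.0, 16.7 and 13.2 CPM with TH588. Its groups did not overlap and its log2 fold change was -0.54 (SE 0.12, adjusted p = 0.00331, edgeR), with 11.8% of its exon bases shared with *TICRR*. *KIF9* and *KIF27*, both linked to motile cilia, were not called, with log2 fold changes of -0.21 (adjusted p = 0.456) and 0.09 (adjusted p = 0.56) by the same edgeR test. *KIF6* had 9, 3 and 0 counts with DMSO and 5, 9 and 3 counts with TH588. *KIF19* had 4, 0 and 0 counts with DMSO and 0, 2 and 0 counts with TH588, and neither gene was tested.

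The 4 remaining members gave 2 tested genes, both called lower, where 25.3% of all genes tested were called lower. *KIF26A* (ENSG00000066735, chromosome 14, 104138723 to 104180894), an unusual kinesin that lacks ATPase activity and acts in signalling, had a fall from a low level that was close in size to that of *KIF18B*. The order of these genes turned with the fit, *KIF26A* falling more with all 6 libraries in edgeR and *KIF18B* more without DMSO replicate A, DMSO replicate B or TH588 replicate A and with limma-voom. It had 2.81, 2.52 and 1.91 CPM with DMSO and 0.523, 1.09 and 0.803 CPM with TH588, on 231, 208 and 179 counts against 14, 119 and 67 counts. No libraries overlapped, and TH588 replicate A was both the shallowest and the lowest. In log2 terms the fold change was -1.50 (SE 0.26, adjusted p = 0.000441, edgeR), and it stayed between -1.79 and -1.33 with each library left out in turn. *KIF26B*, its paralog and per length the most abundant of the 4, at 2.07 CPM per kb with DMSO, had 33.1, 29.8 and 26.8 CPM with DMSO and 18.8, 26.7 and 25.1 CPM with TH588. The groups nearly touched. Its log2 fold change was -0.33 (SE 0.13, adjusted p = 0.0463, edgeR), and the call was lost under 9 of the alternative settings, among them the omission of TH588 replicate A (-0.19, adjusted p = 0.135), TH588 replicate C (-0.36, 0.0812), DMSO replicate A (-0.24, 0.208) or DMSO replicate B (-0.34, 0.0906). *KIF12* had 6, 0 and 2 counts with DMSO and 2, 0 and 1 counts with TH588, and *KIF25* had 0 counts in all 6 libraries.

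The summed level of all 39 members per kb was 471 to 503 CPM per kb with DMSO and 274 to 308 with TH588, so the kinesin mRNA pool was lower in every TH588 library. Mitotic members made up 63.6%, 64.6% and 64.4% of it in the DMSO libraries, against 54.2%, 55.6% and 57.1% after TH588. Transport members made up 33.1% to 34.1% with DMSO and 40.3% to 43.2% with TH588. The share of the transport set was larger with TH588, while its summed level was smaller, 156 to 170 CPM per kb with DMSO and 118 to 128 with TH588. That sum follows its most abundant members. Mean levels per kb were 81.1 with DMSO and 56.4 with TH588 for *KIF5B*, and 26.8 and 14.2 for *KIF1C*, while 5 transport members were called higher. Mitotic members went from 304 to 324 CPM per kb with DMSO to 149 to 171 with TH588. The summed levels of neither set overlapped between the groups.

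**Figure D5:**
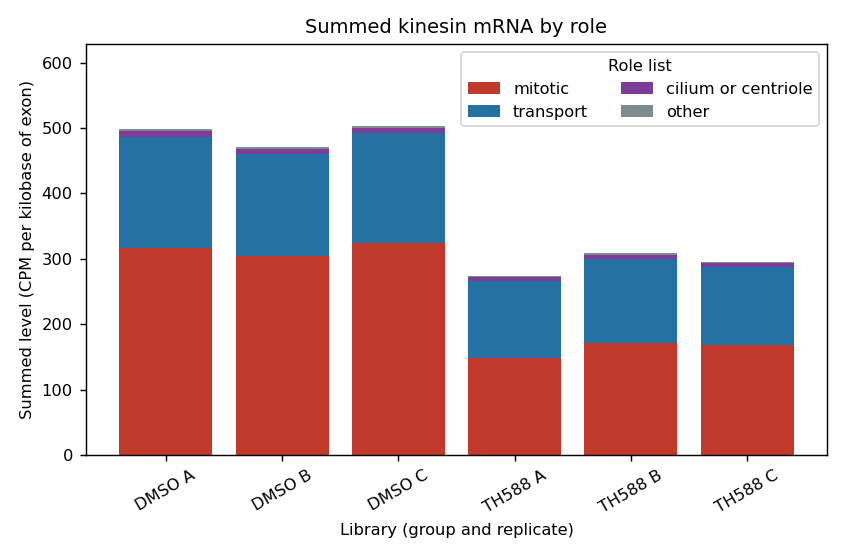
Stacked bars give, for each library, the summed CPM per kb of exon of the mitotic, transport, cilium and other kinesin genes, starting at 0. The mitotic segment is 304 to 324 high with DMSO and 149 to 171 high with TH588.

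Kinesins with other symbols and the partners of the motors were read alongside. The centromere motor *CENPE* went from 194 ± 14.2 to 78.4 ± 9.77 CPM (SD, n = 3 per group), with a log2 fold change of -1.30 (adjusted p = 8.05e-07, edgeR). The spindle motor *KIFC1*, which clusters centrosomes, went from 105 ± 1.43 to 53.9 ± 2.51 CPM (SD, n = 3 per group), with a log2 fold change of -0.96 (adjusted p = 9.55e-07, edgeR), with 12.7% of its exon bases shared with other genes. The other two of this kind, *KIFC2* (0.26, adjusted p = 0.229) and *KIFC3* (0.18, adjusted p = 0.625), which serve in transport and adhesion, were not called by the same test. Of 12 spindle and midzone partners of the mitotic motors, 11 fell and 1 rose, where 49.6% of all genes were called, and their median log2 change was -0.99. The largest falls were in *PRC1* (-1.51), the partner of KIF4A, of whose exon bases 58.4% were shared with other genes, and in the midbody scaffold *ANLN* (-1.38). The riser was *NUMA1* (0.29, adjusted p = 0.0465, edgeR), which anchors dynein at spindle poles.

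Of 6 genes for light chains, accessory subunits and binding proteins of the transport kinesins, 3 were higher and 1 was lower, against 24.2% and 25.3% of all genes tested. *KLC4*, a kinesin-1 light chain, rose from 3.42 ± 0.198 to 13.9 ± 0.815 CPM (SD, n = 3 per group), with a log2 fold change of 2.03 (SE 0.12, adjusted p = 1.08e-07, edgeR), and 12.8% of its exon bases were shared with other genes. *KLC3*, another light chain, rose from 0.793 ± 0.143 to 1.71 ± 0.155 CPM (SD, n = 3 per group), with a log2 fold change of 1.12 (adjusted p = 0.00152, edgeR). *KLC2* (-0.20, adjusted p = 0.0825) and *KLC1* (0.11, adjusted p = 0.552, with 40.6% of exon bases shared) were not called by that test. Both called light chains were thus higher, while the main heavy chain *KIF5B* was lower. Per length, however, *KLC2* was the most abundant light chain, at 12.6 CPM per kb with DMSO and 10.9 with TH588. In the same order *KLC4* stood at 0.533 and 2.17 CPM per kb, and *KLC3* at 0.217 and 0.468. *KIFAP3*, the accessory subunit of kinesin-2, rose from 15.3 ± 2.00 to 27.8 ± 1.57 CPM (SD, n = 3 per group), with a log2 fold change of 0.87 (SE 0.11, adjusted p = 4.51e-05, edgeR). *KIFBP*, which binds several kinesin motor domains and blocks them, fell by 0.54 on the log2 scale (adjusted p = 0.000322, edgeR). Of 18 genes for cargo adaptors, 8 were higher and 1 was lower, so that 9 of 18 were called, against 49.6% of all genes tested. *FEZ1*, an adaptor of kinesin-1, rose from 0.460 ± 0.175 to 2.94 ± 0.245 CPM (log2 fold change 2.67, adjusted p = 5.13e-06, edgeR). *MAPK8IP3*, which links kinesin-1 to vesicles, had a log2 fold change of 0.73 (adjusted p = 0.0001, edgeR), and *KTN1*, a kinesin receptor of the endoplasmic reticulum, was the gene that fell (-0.54, adjusted p = 0.00095, edgeR).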

How the data were processed

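RNA was made into libraries with the TruSeq RNA Library Prep Kit v2, which does not mark strand. The authors aligned reads to GRCh38 with TopHat, counted them per gene with featureCounts 1.4.6 (from the submitters' processing notes) and deposited raw counts per gene under Ensembl identifiers. The study's methods name UCSC gene models. The counting of reads that match several or overlapping genes is not given in the sources used here. All 58336 rows named a gene, and 57754 had a symbol. Coordinates are those of the deposited table, on GRCh38.

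The counts were tested with edgeR 4.0.16 in R 4.3.3 (TMM, default filter on low counts, quasi-likelihood test, no term for the replicate letter), adjusted by the Benjamini-Hochberg method over all 15844 genes tested. Standard errors were taken as the size of the fitted log2 change over the root of F. The procedure was tested on simulated data. Shared exon bases were found from the deposited exons on either strand. KIF4B was aligned to KIF4A with blastn. Alternatives used limma 3.58.1 (voom), DESeq2 1.42.0, other normalizations and filters, SNORD3A removed, and other role lists. Replicates of a group differed by more than sampling noise (chi-square per degree of freedom 23.5 to 165.3). Floors cover counting error only.

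The members, role lists and companion lists were chosen with earlier results of these data known. Named with values were members called with an absolute log2 fold change of at least 1, the most abundant per length of each role, those called against most of their role, those under 10 counts in every library, and, of the companion lists, the 2 largest called changes each way. Other members are given more briefly or were chosen after their values were seen.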

Additional observations from a re-analysis of the deposited data

How the results depend on the processing

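The mitotic kinesins were called lower in 12 of 13 tested genes, and in 11 with library size alone. The median log2 fold changes moved beyond the replicate spread with library size alone, to -0.89 for mitotic and 0.057 for transport kinesins, so that the sign of the transport median depends on the scaling. Leaving KIF21A and KIF21B out of the transport set gave a median of 0.055 and a mitotic minus transport difference of -1.06, and each library left out in turn gave differences from -1.07 to -0.91. Transport medians then ran from -0.07 to 0.03 and mitotic ones from -1.06 to -0.90. The genes called over the whole table ran from 6805 to 7914 in these fits, and were 8225 with limma-voom, 8073 with no filter and 5831 at an adjusted p of 0.01. When only library size was used, KIF1B (0.049) and KIF3A (0.057) changed sign. With a library left out, KIF1B ran from -0.086 to 0.003 and KIF3A from -0.115 to 0.034 (that value without DMSO replicate A and 0.003 without TH588 replicate A). Neither gene was called in any of these fits.

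Replicate letters did not pair the libraries, since deviations of same-letter libraries correlated at -0.17, -0.20 and -0.01. With the letter as a replicate block 7195 genes, 12 mitotic and 8 transport kinesins were called, the medians were -1.01 and -0.05 and the difference was -0.97. A block ended the calls of KIF5C and KIF26B. The 28537837 counts of TH588 replicate A limit the precision of scarce members such as KIF4B and KIF26A.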

Other observations

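The motor that runs the opposite way, cytoplasmic dynein with its activator dynactin, was read in the same way. Of 20 genes listed, 17 were tested, 6 were higher, 3 were lower and 8 were not called by edgeR's quasi-likelihood test, and the median log2 fold change was 0.17. The share called, 52.9%, was near the 49.6% of all genes tested. The intermediate chain *DYNC1I2* rose from 171 ± 7.12 to 278 ± 16.8 CPM (SD, n = 3 each, log2 fold change 0.70, adjusted p = 1.69e-05, edgeR), and the light chain *DYNLRB1* rose from 40.3 ± 4.74 to 63.7 ± 6.90 CPM (log2 fold change 0.66, adjusted p = 0.000266, edgeR). The light chains *DYNLL1* and *DYNLL2*, which bind many proteins besides dynein, fell by 0.57 and 0.58 on the log2 scale (adjusted p = 0.000207 and 0.0223, edgeR). *DYNC1I1*, *DYNLRB2* and *DYNLT3* had 0 counts in all 6 libraries.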
